A study of Mus musculus with 10 samples.

Results

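Differentially methylated regions (DMRs) inside LINE and LTR retrotransposons were examined in sperm of F1 mice from arsenic-exposed and control dams. The method was reduced representation bisulfite sequencing (RRBS). The enzyme MspI cuts the DNA at CCGG, which favours CpG-rich fragments, and after bisulfite treatment a cytosine that carries no methyl group is read as thymine. The 10 samples were sperm of C3H/HeN males aged 17 to 19 weeks. The 5 males of the control group came from dams on plain tap water, and the 5 males of the arsenic group came from dams that drank 85 ppm sodium arsenite from gestational day 8 to 18. The males of each group were from different litters, and the sperm had been washed in a buffer that lyses somatic cells.

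The deposited list held 577 DMRs, and 225 of them (39.0%) carried a repeat annotation whose class was LINE or LTR. These 225 regions are the subject here, 116 in LINEs and 109 in LTR elements, and the other 352 listed regions serve for comparison. Each region has 1 methylation difference, the mean of the arsenic group minus that of the control group in percentage points. A region with a negative value is called a hypoDMR and one with a positive value a hyperDMR. The calls are the authors' own, and the list holds only regions that differed by more than 10 points, had at least 3 CpGs and had at least 1 differentially methylated cytosine (DMC). The list holds 1 value a region and none per animal, so the spread among males is unknown and no test between the groups was made. Shares carry 95% Wilson intervals, which cover counting error only. The list gives differences and no methylation levels, so the tissue label was not checked.

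LINEs of the L1 type copy themselves through RNA. A full-length copy starts with a promoter in its 5′ untranslated part, made in many mouse L1s of short repeated units, and goes on with ORF1 and ORF2, which encode an RNA-binding protein and the endonuclease and reverse transcriptase. LTR retrotransposons resemble retroviruses. Their internal part, marked "-int" in the element's name, lies between long terminal repeats, which hold the promoter and the polyadenylation signal. Recombination between both ends often leaves a single terminal repeat in the genome. In the mouse male germ line these elements are methylated before birth, a step that involves DNMT3L and, for young elements, piRNAs.

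The bases of 8 regions show what was measured. For 8 of the terminal repeat and L1 names with at least 4 regions, the region with the largest difference among those of up to 300 bases is given, from the plus strand of RefSeq's GRCm38.p6 assembly, 5′ to 3′. Every CpG is in capitals, and a CpG cut by the end of a region is in lower case. The LINE regions are L1Md_F2 at chrY:2358727-2358772, L1Md_A at chrX:38807221-38807276, L1Md_T at chr6:69596129-69596217, L1Md_F3 at chr11:29069815-29069909 and L1Md_F at chrX:108684473-108684603. The terminal repeats are IAPEY_LTR at chr9:19868686-19868757, RLTR10A at chr8:4408297-4408550 and RLTR27 at chr2:166496076-166496171.
L1Md_F2: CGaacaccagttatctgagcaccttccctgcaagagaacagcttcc
L1Md_A: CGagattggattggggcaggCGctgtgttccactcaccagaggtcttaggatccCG
L1Md_T: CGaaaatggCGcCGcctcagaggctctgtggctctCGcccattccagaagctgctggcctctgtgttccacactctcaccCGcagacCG
L1Md_F3: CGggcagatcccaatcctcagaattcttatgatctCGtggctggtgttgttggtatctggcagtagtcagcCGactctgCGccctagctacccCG
L1Md_F: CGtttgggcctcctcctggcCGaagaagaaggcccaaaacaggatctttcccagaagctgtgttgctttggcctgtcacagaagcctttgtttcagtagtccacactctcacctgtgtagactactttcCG
IAPEY_LTR: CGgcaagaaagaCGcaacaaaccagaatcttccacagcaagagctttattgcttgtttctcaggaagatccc
RLTR10A: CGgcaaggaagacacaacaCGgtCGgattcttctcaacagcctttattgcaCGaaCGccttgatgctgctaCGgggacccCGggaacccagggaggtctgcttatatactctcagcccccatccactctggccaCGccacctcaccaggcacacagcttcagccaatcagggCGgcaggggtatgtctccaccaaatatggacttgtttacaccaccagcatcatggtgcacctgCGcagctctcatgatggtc
RLTR27: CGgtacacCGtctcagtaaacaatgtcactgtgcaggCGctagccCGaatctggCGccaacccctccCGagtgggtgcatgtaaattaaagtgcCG

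Of these 8 regions, the L1Md_A and the RLTR10A regions were hyperDMRs, at 16.4 and 21.5 points, and the other 6 were hypoDMRs. The reference holds 2 CpGs in the L1Md_F2 region and 3 each in the L1Md_A, L1Md_F and IAPEY_LTR regions. The RLTR10A region holds 11 CpGs. The regions were short stretches of an element, not whole elements: the median width of the 225 regions was 124 bases (quartiles 88 and 184).

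Most of the retrotransposon regions were hypoDMRs, and most of the hyperDMRs were in terminal repeats. Of the 225 regions, 188 were hypoDMRs (83.6%, interval 78.2 to 87.8%), beside 85.6% of all listed regions. The other 37 were hyperDMRs (16.4%), beside 14.4% of all listed regions. Among the 352 regions outside LINE and LTR, 306 were hypoDMRs (86.9%, interval 83.0 to 90.1%). The intervals of the shares inside and outside these classes overlap.

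The share of hypoDMRs was higher in LINEs than in LTR elements. In LINEs 106 of 116 regions were hypoDMRs (91.4%, interval 84.9 to 95.3%), and in LTR elements 82 of 109 were (75.2%, interval 66.4 to 82.4%). Within LTR elements the internal parts held 28 hypoDMRs among 30 regions (93.3%, interval 78.7 to 98.2%). The terminal repeats held 54 among 79 (68.4%, interval 57.5 to 77.6%). The intervals of internal parts and terminal repeats do not overlap, nor do those of LINEs and LTR elements, and neither difference was tested. Terminal repeats thus held 25 of the 37 hyperDMRs (67.6%) and 54 of the 188 hypoDMRs (28.7%). A like split was seen within ERVK, the largest LTR family: 22 of 23 internal regions and 43 of 63 terminal repeats were hypoDMRs.

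**Figure D1:**
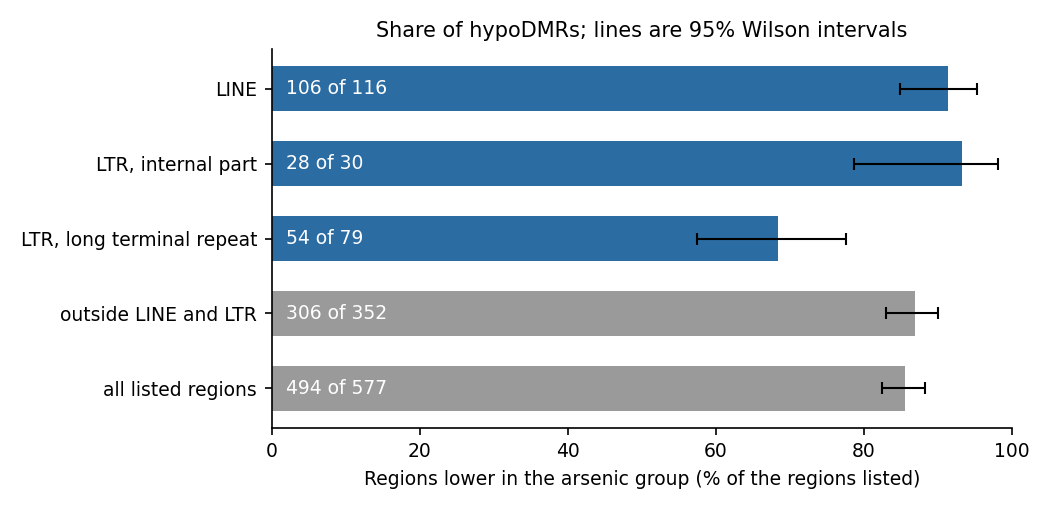
Share of regions with lower methylation in the arsenic group (x axis, %) among listed regions in LINEs, in the internal part and the terminal repeat of LTR elements, outside both classes and in the whole list; lines are 95% Wilson intervals and the numbers are hypoDMRs of all regions. The terminal repeats, at 54 of 79, have the lowest share of the groups plotted.

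The median sizes of the differences were close to each other, while the largest were not. The median absolute difference was 12.1 points in the 225 regions (quartiles 10.8 and 13.6) and 12.2 points in the other 352. It was 11.7 points in LINEs and 12.5 points in LTR elements. The largest absolute difference was 17.4 points in LINEs, 22.9 in LTR elements and 26.1 in the regions outside both. HypoDMRs and hyperDMRs of the 225 had medians of 12.1 and 11.9 points. The list starts at 10 points, and 76 of the 225 regions (33.8%) were under 11 points. A difference of 15 points or more was found in 33 regions (14.7%), beside 14.6% of all listed regions, 12 of them in LINEs and 21 in LTR elements.

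Many regions rested on few cytosines. The listed number of CpGs had a median of 5 in the 225 regions and 6 in the other 352, with a median of 4 in LINEs and 6 in LTR elements. A single DMC carried 163 of the 225 regions (72.4%), and 62 (27.6%) had 2 or more DMCs, beside 35.5% of all listed regions. All 26 LINE regions with 2 or more DMCs were hypoDMRs, so that each of the 10 hyperDMRs in LINEs had 1 DMC. The listed CpG number exceeded the number of CpG dinucleotides of the reference in 80 of the 224 regions on assembled chromosomes (35.7%), against 149 of the 352 other regions (42.3%). It exceeded the number of CpG cytosines on both strands in 0 of either. A region listed with 3 CpGs can thus hold fewer CpG sites, and 21 of the 224 (9.38%) held at most 2 sites, against 7 of the 352 other regions (1.99%).

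L1 was the family of all 116 LINE regions, and 98 of them (84.5%) carried an L1Md_ name. L1Md_F2 was the most frequent, with 33 regions, followed by L1Md_A with 26, L1Md_T with 18, L1Md_F3 with 10 and L1Md_F with 9. In L1Md_F2 32 of 33 regions were hypoDMRs, in L1Md_A 23 of 26, in L1Md_F3 all 10 and in L1Md_F 8 of 9. L1Md_T had the lowest share, 14 of 18 (77.8%, interval 54.8 to 91.0%). The 18 regions with other L1 names, such as L1_Mus and Lx, were hypoDMRs with 1 exception, an L1MC3 region.

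The LINE hypoDMRs with the largest differences were spread over 4 L1 names. Here and below, a region is said to be near the gene whose start is nearest to it in the annotation. Over all members these starts lay 2266 to 2041933 bases away, with a median of 84246 bases. An L1Md_F2 region on chromosome Y, 188340 bases upstream of Zfy2, a Y-linked zinc finger gene of spermatogenesis, had -17.4 points. An L1Md_F2 region near Stc2, which encodes the secreted glycoprotein stanniocalcin, had -17.1 points. An L1Md_A region at chrX:24237434-24237995 near Gm5934 had -16.6 points and is the widest of these 6. L1Md_F3 near Pnpt1, a mitochondrial exoribonuclease gene, had -16.5 points, as had an L1_Mus4 region near the adhesion gene Mdga2. An L1Md_F2 region in an intron of Kcnip4, whose product binds potassium channels, had -16.3 points.

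The 10 hyperDMRs in LINEs ran from 10.2 to 16.4 points. The highest was the L1Md_A region in an intron of 6030498E09Rik on chromosome X, and next came L1Md_T near Ppp1r2-ps9 on chromosome X with 13.3 points. L1Md_T in an intron of Zfp442, a zinc finger gene, had 12.2 points, L1Md_T near Gm6634 had 11.03 and L1Md_T in an intron of the growth factor gene Pdgfd had 10.97. The remaining L1Md_A regions, near Tm4sf1 and near Stxbp5, had 10.9 and 10.3 points. L1MC3 near Rtl6 had 10.9 points, L1Md_F in an intron of the pigment gene Oca2 had 10.8 and L1Md_F2 near Gm6760 had 10.2. Of these 10 values, 3 were above 11.7 points, the median size of the LINE hypoDMRs.

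**Figure D2:**
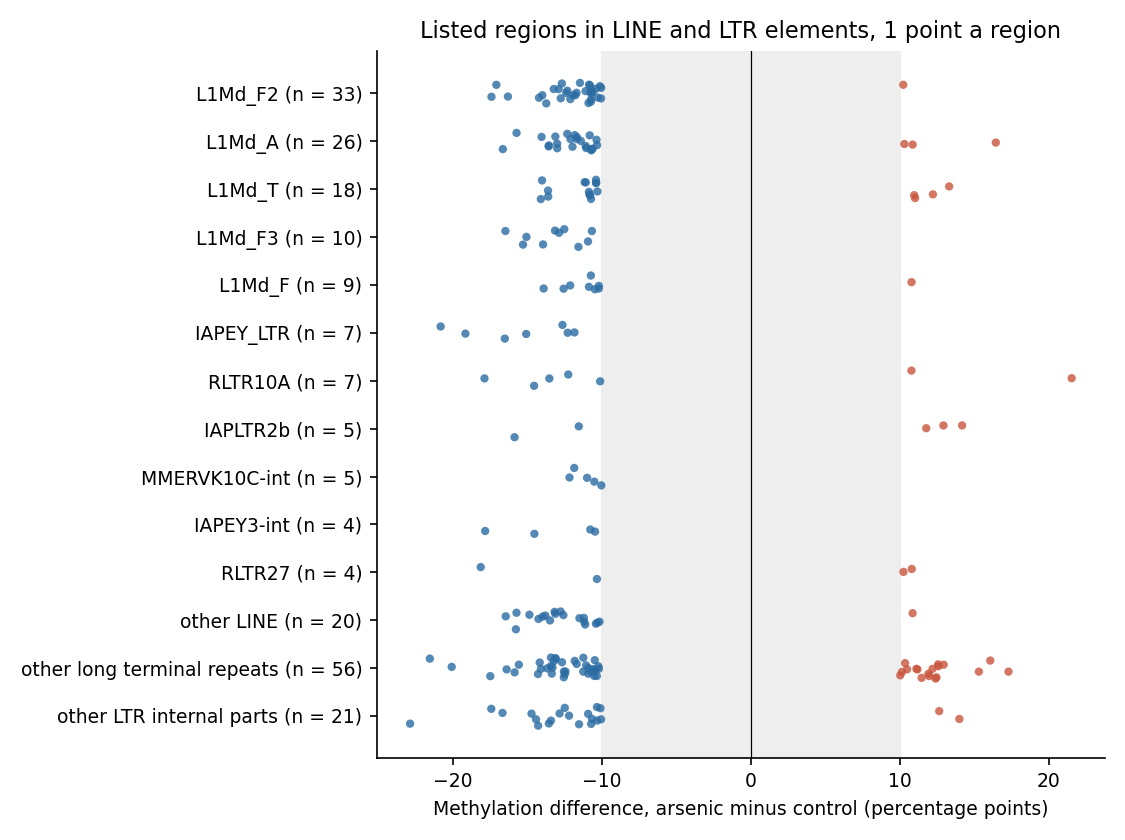
Methylation difference, arsenic minus control (x axis, percentage points), of each of the 225 regions by element name; blue points are hypoDMRs, red points hyperDMRs, and the grey band is the range below 10 points that the list leaves out. IAPEY_LTR, L1Md_F3, MMERVK10C-int and IAPEY3-int have points on the left side only, and IAPLTR2b has 2 on the left and 3 on the right.

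Smallest values of the L1 names lay just past the threshold. The smallest was -10.04 points in L1Md_F2 near the olfactory receptor gene Olfr774, -10.3 in L1Md_T near the trypsin gene Try10, -10.7 in L1Md_F3 in an intron of Iqcm and -10.2 in L1Md_F near Peg12. In L1Md_A the smallest was the hyperDMR near Stxbp5.

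The listed LINE regions were not spread evenly along the L1 copy. The list does not show where along it RRBS measured CpGs, so their positions were not set against those of all measured CpGs. To place them, the open frame of ORF2 found beside an L1Md_A region (3900 bases) was aligned to 10000 bases on each side of the 115 LINE regions on assembled chromosomes. Of these, 66 (57.4%) lay at -2500 to -1000 bases from the start of the ORF2 frame, on the promoter side of the copy. The middle of these positions was at -1543 bases, and 63 of the 66 were between -1800 and -1300. For 62 of the 66 the alignment reached the start of the frame to within 100 bases. Positions outside the aligned sequence were extrapolated from it without gaps. Regions on the promoter side were placed at any distance from the alignment (1308 to 3393 bases). All other positions needed an alignment within 2000 bases. Another 19 regions (16.5%) were placed by this count within the span of the ORF2 frame, but only 3 of them lay in sequence that aligned to it, and the other 16 lay 81 to 1123 bases from it. A further 12 (10.4%) were placed past the end of the frame, at 213 to 1095 bases from the alignment, 2 were close upstream of it, and 16 were not placed. The windows were set after the positions had been seen.

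By name, the positions were as follows. In L1Md_A 18 of 25 regions and in L1Md_T 14 of 18 were on the promoter side, and none of either was placed past the end of ORF2. In L1Md_F2 15 of 33 were on the promoter side and 6 were placed past the end of the frame. Another 7 were placed within its span, none of them in aligned sequence. Of the 9 LINE hyperDMRs in L1Md_ elements, 8 were on the promoter side, namely all 4 of L1Md_T, all 3 of L1Md_A and the 1 of L1Md_F2. For the L1Md_T region in Pdgfd and the L1Md_F2 region near Gm6760 the alignment lay 3393 and 2909 bases away. Both distances are past the limit of 2000 bases used for the other positions. Of all LINE regions, 58 hypoDMRs and these 8 hyperDMRs were on the promoter side. The 12 regions placed past the end of ORF2 were hypoDMRs throughout, beside 91.4% of all LINE regions. So were 18 of the 19 placed within its span and 15 of the 16 not placed. GC content in 200 bases around the midpoint had a median of 60.5% on the promoter side and 50% past ORF2. The positions are those of the C57BL/6J reference, and a C3H/HeN copy can differ.

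**Figure D3:**
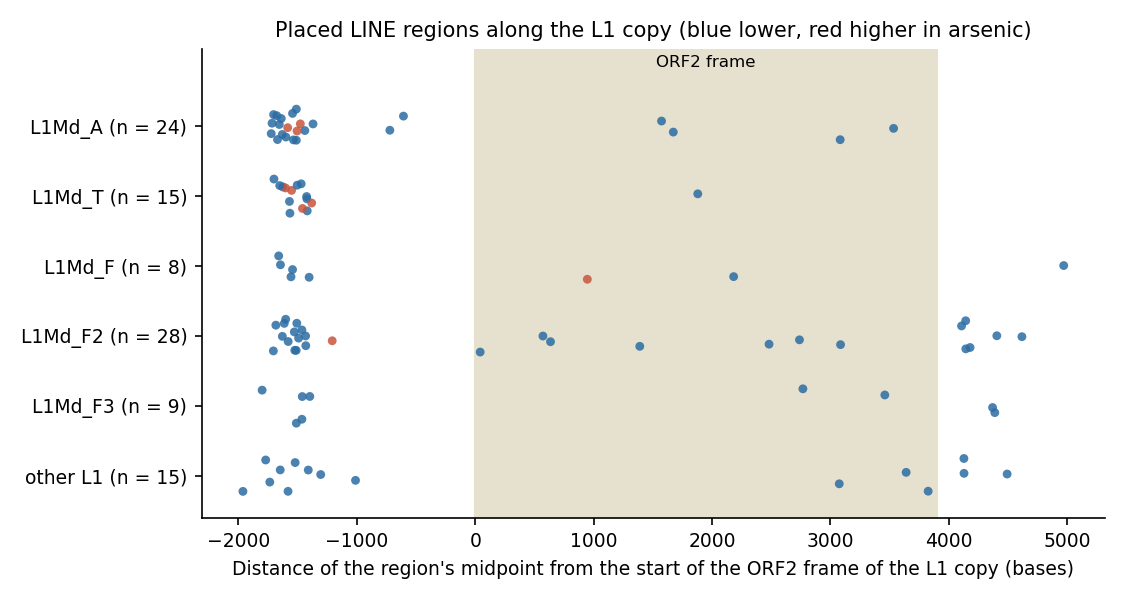
Distance of the midpoint of each placed LINE region from the start of the ORF2 frame (x axis, bases, along the direction of the copy), by L1 name; blue points are hypoDMRs, red points hyperDMRs, the shaded band is the ORF2 frame of 3900 bases, and positions outside the aligned sequence are extrapolated. In L1Md_A and L1Md_T 18 and 14 regions sit in 1 group upstream of the frame, and in L1Md_F2 a further 6 are placed past its end.

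In some names most regions covered the same stretch of the element, and in others few did. The 20 bases shared by the most L1Md_A regions were held, on either strand, by 16 of 25 of them, 14 hypoDMRs and 2 hyperDMRs. They were also in 5 L1Md_F3 and L1Md_T regions, and 15 of these 21 regions were on the promoter side. The L1Md_A region on chromosome X given above holds the reverse complement. In terminal repeats, 5 of 7 IAPEY_LTR and 5 of 7 RLTR10A regions shared 20 bases. The IAPEY_LTR run was also in 1 IAPEy-int region. The run shared by the most regions was in only 6 of 33 regions of L1Md_F2, 3 of 18 of L1Md_T and 2 of 9 of L1Md_F. The runs of L1Md_A and IAPEY_LTR, neither of which holds a CpG, show which part of these elements was listed repeatedly.
L1Md_A: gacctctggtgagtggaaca
IAPEY_LTR: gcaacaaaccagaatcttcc

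Many regions had a near-identical region of the same name, although the identity of pairs of 1 name was often low. All 7 IAPEY_LTR regions had another region of that name at 90% identity or more, with a median over pairs of 94.4%. So had 20 of 25 L1Md_A regions, 15 of 18 L1Md_T regions, 19 of 33 L1Md_F2 regions and 4 of 5 IAPLTR2b regions. The median over pairs was lower in these names, 82.3% in L1Md_A, 63.9% in L1Md_T, 61.9% in L1Md_F2 and 86.7% in IAPLTR2b. None of the 9 L1Md_F and none of the 4 RLTR27 regions did.

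Close copies elsewhere in the genome were common. The middle 31 bases occurred once in the reference in 111 of 224 regions (49.6%), against 333 of the 352 other listed regions (94.6%). They occurred 10 times or more in 79 (35.3%), against 8 of the others (2.27%). In LINEs 47 of 115 regions (40.9%) and in LTR elements 64 of 109 (58.7%) had a single copy. The median number of copies was 54 in L1Md_A, 83.5 in L1Md_T, 177 in IAPEY_LTR and 1 in L1Md_F2. HypoDMRs made up 88 of the 111 single-copy regions (79.3%) and 99 of the 113 with more copies (87.6%). Within LINEs these shares were 91.5% and 91.2%, and within terminal repeats 29 of 47 (61.7%) and 25 of 32 (78.1%). How reads on close copies were placed was not tested.

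**Figure D4:**
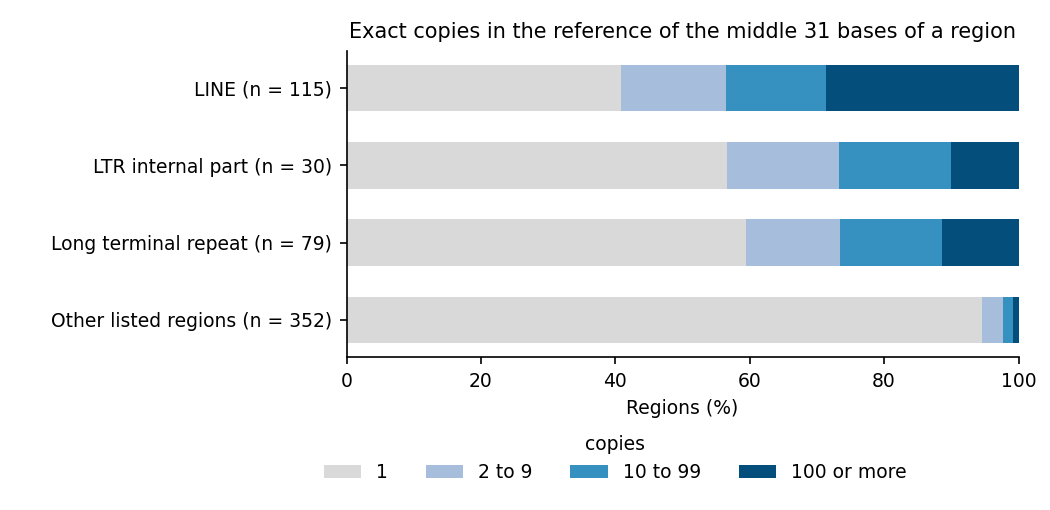
Share of regions (x axis, %) by the number of exact copies, on both strands of the reference chromosomes, of the 31 bases at the region's middle. A single copy was found for 47 of 115 LINE regions, 17 of 30 internal parts, 47 of 79 terminal repeats and 333 of 352 regions outside both classes.

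LTR regions were spread over 59 element names, against 17 names in LINEs. ERVK, the family of the IAP and ETn elements, held 86 of the 109 (78.9%), ERV1 held 13, and ERVL and ERVL-MaLR held 5 each. HypoDMRs made up 65 of 86 ERVK regions, 10 of 13 in ERV1, 4 of 5 in ERVL and 3 of 5 in ERVL-MaLR. Of the 25 LTR names with at least 2 regions, 12 held regions of both directions. Chosen after their values were seen, the 10 regions of RMER17 names held 6 hyperDMRs and 4 hypoDMRs, from 10.5 to 17.5 points in size.

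IAP elements are retroviral elements that are active in the mouse. The names that begin with IAPE, among them IAPEz-int with 3 regions, held 21 hypoDMRs and 1 hyperDMR (95.5% hypoDMRs, interval 78.2 to 99.2%). The exception was an IAPEY3C_LTR region near 4930556G01Rik with 10.1 points. Outside chromosome Y, 13 of 14 IAPE regions were hypoDMRs. The IAPLTR names held 6 hypoDMRs and 3 hyperDMRs (66.7% hypoDMRs, interval 35.4 to 87.9%), the latter all in IAPLTR2b. These intervals overlap, both include 85.6%, the share of hypoDMRs in the whole list, and the difference was not tested. Both sets of names mix terminal repeats and internal parts. The MMERVK names held 8 hypoDMRs and no hyperDMR (interval 67.6 to 100%). All 8 were internal parts, a group in which 93.3% of the regions were hypoDMRs.

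IAPEY_LTR had the largest median difference, 15.1 points, of the names with at least 4 regions. Its 7 hypoDMRs had -20.8 points near the olfactory receptor gene Olfr862, -19.2 near G530011O06Rik, -16.5 near Gm20815 and -15.1 near Cox7c. The last 3, near Gm20826, Gm20738 and Gm20747, had -12.6, -12.3 and -11.8 points. The other IAPE regions with large differences were IAPEY3_LTR in an intron of Cast, the gene of the calpain inhibitor calpastatin, with -21.5 points, and IAPEY3-int near Rbmy with -17.8. IAPEY3-int had its smallest difference near Gm6455, -10.5 points.

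The largest difference of all 225 regions was -22.9 points, in ETnERV-int at chr17:23523263-23523344 near 6330415G19Rik. By size the next were the IAPEY3_LTR region in Cast, the hyperDMR in RLTR10A near Ccl25 and the IAPEY_LTR region near Olfr862. IAPLTR3 near Nxph2, a neurexophilin gene, followed with -20.1 points, then IAPEY_LTR near G530011O06Rik and RLTR27 near 5031425F14Rik, the latter with -18.1 points.

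Among LTR hyperDMRs the RLTR10A region 58835 bases from the start of the chemokine gene Ccl25 stood highest, with 21.5 points over 15 CpGs and 3 DMCs. MTE2b near Epb41l4a was next with 17.3 points and 2 DMCs. MT2B, 1280306 bases from the start of the RNA-binding protein gene Nova1, had 16.1 points. RLTR9E in an intron of the phosphatase gene Inpp4b had 15.3. IAPLTR2b near Cpxcr1 on chromosome X had 14.2 points. The median size of the LTR hyperDMRs was 12.2 points.

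Terminal repeats of 1 name could differ in direction. RLTR10A ran from -17.9 points in an intron of the fatty acid elongase gene Elovl6 to 21.5 points, with 5 hypoDMRs and 2 hyperDMRs, and its smallest value was -10.1 near 7420701I03Rik. IAPLTR2b had -11.5 points near the cadherin gene Cdh9, and 14.2, 12.9 and 11.8 points in its 3 hyperDMRs. RLTR27 had -18.1 and -10.3 points in its hypoDMRs and 10.8 and 10.2 in its hyperDMRs. MMERVK10C-int ran only from -12.2 to -10.03 points, and both of these values came from regions near 5730507C01Rik.

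Of the regions with the most DMCs, RLTR27 near 5031425F14Rik had 7 DMCs among 12 listed CpGs. RMER15 in an intron of Gm16796 had 5, with -11.8 points. Another 5 regions had 4 DMCs: L1Md_T near Gm2897, L1Md_F2 near Pglyrp3, L1Md_F3 in an intron of Pcdha12, RLTR10A in Elovl6 and RLTR44B near B020004J07Rik. Of the 17 regions with 3 or more DMCs, 16 were hypoDMRs, and the exception was the RLTR10A region near Ccl25. In the whole list, at any number of DMCs, 85.6% were hypoDMRs.

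Both sex chromosomes carried many of the regions. On chromosome X 26 of 31 listed regions (83.9%) and on chromosome Y 12 of 14 (85.7%) were in LINE or LTR elements, against 39.0% in the whole list. On chromosome X there were 20 LINE regions, of which 9 were L1Md_A, and 6 LTR regions, with 21 hypoDMRs and 5 hyperDMRs in all. On chromosome Y all 12 were hypoDMRs (interval 75.8 to 100%), with a median of 13.7 points. This interval includes 85.6%, the share of hypoDMRs in the whole list. The share of the mappable CpGs of each chromosome that lies in these elements was not measured here.

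The 12 regions on chromosome Y were 8 IAPE and 4 L1 regions. IAPEY_LTR accounted for 5 of them, at -19.2, -16.5, -12.6, -12.3 and -11.8 points, and IAPEy-int had -14.4 points near Gm20823 and -13.4 near Gm20738. IAPEY3-int near Rbmy, an RNA-binding protein gene of germ cells, had -17.8 points. Of the L1 regions, L1Md_F2 near Zfy2 had -17.4, L1Md_T near Ssty1, a Y-linked gene of spermatids, had -14.0, L1Md_A near Gm20871 had -13.0 and L1Md_F near Gm20854 had -12.1. Only 2 of the 12, those near Zfy2 and Rbmy, had a single copy of their middle 31 bases.

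**Figure D5:**
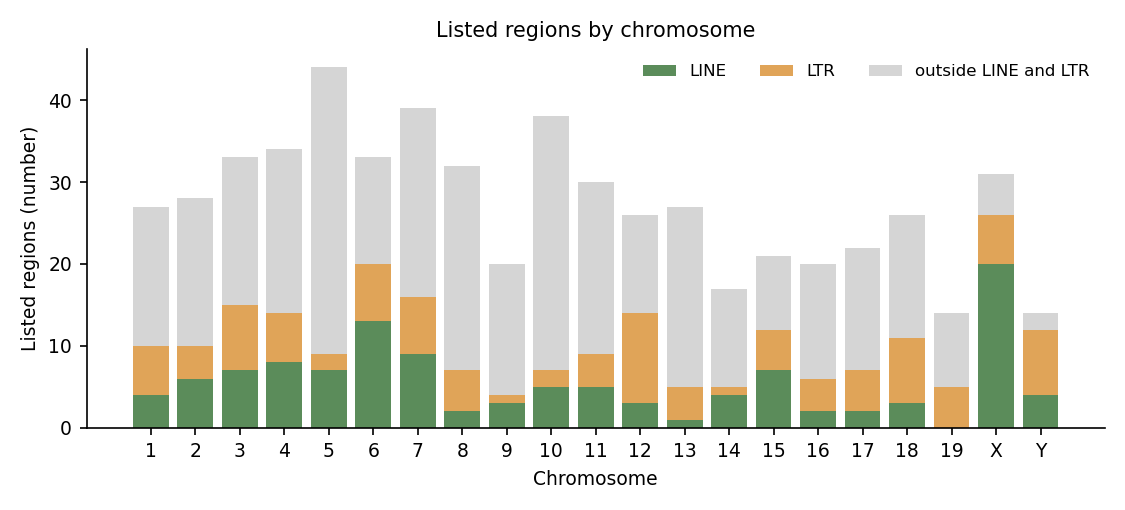
Number of listed regions (y axis) on each chromosome (x axis) in LINEs, in LTR elements and outside both. Chromosome X has 20 LINE and 6 LTR regions among 31, chromosome Y 4 and 8 among 14, and chromosome 6 has the most LINE and LTR regions of any autosome, 20.

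Genes were distant from most of these regions. The annotation placed 194 of the 225 (86.2%) in intergenic DNA and 30 (13.3%) in introns, and the last is on an unplaced contig. None was in a promoter, an exon or an untranslated region. Whether the annotation can name a LINE or LTR element in such places was not tested. If it cannot, this absence and part of the contrasts with the other regions follow from how the regions were chosen. Of the other 352 regions, 53.7% were intergenic. The median distance to the nearest transcription start site (TSS) was 84246 bases (quartiles 28395 and 263988), against 21813 bases in the other regions. None lay within 2000 bases of a TSS, against 42 of the others (11.9%), and 17 lay within 10000 bases, 14 of them hypoDMRs. A distance of 100000 bases or more was found for 103 of 224 (46.0%), against 15.1% of the others.

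LTR elements held the regions nearest to a TSS. RMER17D2 lay 2266 bases upstream of Kank3 and was a hyperDMR of 12.6 points. RMER15 lay 2509 bases upstream of Pfdn4, which encodes a subunit of the chaperone prefoldin, with -11.8 points. RLTR13A3 and RLTR10A lay 3890 and 3992 bases upstream of Prpmp5 and Zfp959, with -10.6 and -12.3 points. The nearest LINE region was an L1Md_A region 7173 bases upstream of Dynlrb2, a dynein light chain gene, with -15.7 points.

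The 30 intronic regions lay in 29 host genes and held 24 hypoDMRs and 6 hyperDMRs. The hyperDMRs were those in 6030498E09Rik, Zfp442, Pdgfd, Oca2 and Inpp4b and an RLTR1D region in Dtwd2 with 10.4 points. Dcc, the gene of a netrin receptor in axon guidance, held both an L1Md_F2 region with -10.8 points and an RLTR10A region with -14.5. The host was also the nearest gene for 22 of the 30.

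By nearest gene, 11 of 212 genes had 2 or more regions, and no 2 regions lay within 50000 bases of each other. Both directions occurred at Celf4, an RNA-binding protein gene, with -14.2 points in RLTR5_Mm and 10.03 in ORR1D1. They also occurred at Ppp1r2-ps9, with -14.2, -12.5 and 13.3 points in L1Md_F2, IAPEY3C_LTR and L1Md_T. At the other 9 both regions were hypoDMRs. Fam110b had -10.4 points in L1Md_F2 and also in L1Md_T, the closest pair, 55863 bases from start to start. Rprl1 had -12.8 and -14.1 points, Mir3964 -13.2 and -11.1, Gm19782 -10.3 and -12.8, Gm20738 -12.3 and -13.4, Gm6455 -10.4 and -10.5, and 5730507C01Rik and Dcc the pairs given above.

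Some nearest genes belong to clustered families, which were counted after their names had been seen. Olfactory receptor genes were nearest to 5 regions and vomeronasal receptor genes to 6, all hypoDMRs, beside 85.6% of all listed regions. In the other 352 listed regions these numbers were 5 and 0, and those 5 were hypoDMRs too. Genes named Zfp with a number were nearest to 6 regions, 5 of them hypoDMRs, against 2 of the others. Predicted or RIKEN gene names were nearest to 63 regions (28%), against 17.6% of the others.

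Short motifs were counted around the midpoints. In 200 bases, on both strands, the MspI site CCGG was present in 94.6% of the 224 regions and in 91.1% of all 576 placed regions of the list. The letters TATAA were in 36.7% of LTR and 8.70% of LINE regions, beside 16.8% of all. AATAAA, the letters of the polyadenylation signal, was in 28.4% of LTR and 3.48% of LINE regions, beside 15.1% of all. CACGTG was in 3.13% against 4.34% of all and GGGCGG in 8.04% against 8.51%, while TGACGTCA was in no window of the list. TATAA and AATAAA can overlap by a base or more, and a match to these letters is not a binding site. GC content had a median of 57% in LINE and 51% in LTR windows. In 107 of 115 LINE regions the midpoint lay in a soft-masked block of the reference, with a median block length of 373 bases. In LTR elements the midpoint lay in such a block in 54 of 79 terminal repeats and in 18 of 30 internal parts.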

How the data were processed

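Sperm DNA of 5 control and 5 arsenic F1 males was sequenced by RRBS. According to the methods of the study, Bismark (after Trim Galore) aligned the reads to mm10, and the authors kept CpGs with at least 10 reads in all 10 samples, called DMCs at a q-value of 0.01 or less with methylKit, joined CpGs to DMRs with eDMR and annotated them with HOMER. The deposited table gives for each region the difference in percent methylation (percentage points), the count of CpGs and of DMCs, the width, the distance to the TSS and a q-value. The depth of a region is unknown apart from that minimum. The deposited start and end were used, counted from 1. At 576 of 576 placed regions both are CpG cytosines of GRCm38.p6, and the listed width is 1 base more than this span.

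Regions were members where the class field of the repeat annotation was LINE or LTR. Host genes came from the RefSeq transcript in the annotation. No test was run, since the list holds 1 value a region. ORF2 was aligned with blastn 2.17.0 (alignments of at least 500 bases), exact copies of 31 bases were counted on both strands, and identity was measured with 200 bases added on each side of the longer region. The scripts were tested on planted sequences and positions. The regions named are the largest hypoDMRs and hyperDMRs of LINE and LTR, all LINE hyperDMRs, the extremes of each element name with at least 4 regions, those with the most DMCs, those on chromosome Y and those sharing a nearest gene. Some of these regions, and the sequence of 1, are not reported here. The members and lists were chosen with earlier results of these data known.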

Additional observations from a re-analysis of the deposited data

How the results depend on the processing

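The share of hypoDMRs among the 225 regions stayed inside its interval with 15 points or more, a q-value of 0.001 or less, at least 5 CpGs, without chromosomes X and Y and with intergenic regions only. No 2 regions lay within 10000 bases, so merging neighbours changed nothing and is no check. With at least 2 DMCs it was 88.7% (62 regions). In LINEs it was 100% of the 30 regions at a q-value of 0.001 or less and 100% of the 26 with at least 2 DMCs. In LTR elements it stayed inside its interval under the 6 other settings, from 73.7% to 81.0%. With 15 points or more the median absolute difference was 16.5 points, by construction, and its other settings stayed within the quartiles of the main value. Terminal repeats ranged from 66.2% to 76.5% hypoDMRs and internal parts from 90.5% to 100% over 6 of these settings, chosen for these parts after the data were seen. In the region itself, in place of 200 bases, CCGG was in 25.4% of the regions. No paired analysis was possible because the list holds no value per animal. Precision is limited by the truncation at 10 points, the depth of each region, which is unknown, and close copies of the elements.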
